A study of Mus musculus with 12 samples.

Results

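Imprinted genes are expressed mainly or only from the copy inherited from one parent. The set described here holds imprinted genes outside the Prader-Willi cluster: 44 gene symbols were listed, 42 of them had a row in the table of counts, and 40 reached a mean of at least 10 expected counts per library. Those 40 genes are the members, out of 22236 genes in the table, and all 40 passed the filter on low counts and were tested. Phlda2 and Calcr fell below the minimum, and Kcnq1ot1 and Peg13 had no row.

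Hippocampal mRNA was sequenced from 12 male mice, at least 6 weeks after both hippocampi were injected with adeno-associated virus of serotype 9. The labels give an age of 3 to 5 months at injection, and the methods one of 3 to 6 months. C57BL/6J (B6) and DBA/2J (D2) are inbred strains, and each gave 3 mice with a hairpin RNA against Hp1bp3 (KD), which encodes heterochromatin protein 1 binding protein 3, and 3 mice with a scrambled hairpin (Ctrl). All 4 groups therefore carried virus, and none was left uninjected. The virus was aimed at the dorsal hippocampus while RNA came from the whole hippocampus, so cells without virus contributed to every library.

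Imprinted genes lie in domains, where a stretch of DNA methylated on one parental copy sets which genes of the neighbourhood are read from which parent. Long noncoding RNAs are commonly made from one copy and the protein-coding genes around them from the other. Many imprinted genes act in growth, and several are strongly expressed in brain. Counts per gene do not separate the parental copies, so nothing below measures imprinting itself, and fewer cells of a type cannot be told apart from less RNA per cell in whole tissue.

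Levels are given in CPM, counts scaled to a common library size after trimmed mean of M values normalization, and changes as log2 fold changes with standard errors (SE) from the quasi-likelihood F-test of edgeR. A gene was called when its adjusted p was under 0.05, with the Benjamini-Hochberg adjustment made over all 15853 genes tested. The libraries held between 18.21 M and 39.42 M expected counts. Hp1bp3 was at 294 to 310 CPM in B6 Ctrl and 182 to 259 in B6 KD, with 215 to 234 (Ctrl) and 163 to 230 (KD) in D2. The library labelled D2 KD 3, at 230 CPM, lay within the D2 Ctrl range. B6 KD 3, at 259 CPM, was the highest KD library and lay below the B6 Ctrl range. Hp1bp3 itself did not pass the edgeR test. Its log2 fold change of KD over Ctrl was -0.54 (SE 0.15, adjusted p = 0.076) in B6. It was -0.25 (SE 0.15, adjusted p = 1) in D2 and -0.39 (SE 0.11, adjusted p = 0.0907) averaged over strains. DESeq2, the test used in the paper and an alternative here, called Hp1bp3 in B6 (adjusted p = 0.00893) and averaged over strains (adjusted p = 0.0103). The paper reports the knockdown in mRNA and by western blot. Averaged without the library labelled D2 KD 3, the edgeR log2 fold change of Hp1bp3 was -0.48. That library was singled out by its Hp1bp3 level, so a larger drop without it was fixed in advance and is no test. A list of 12 choroid plexus markers summed to 66.4 to 206 CPM in 5 libraries (B6 Ctrl 1, B6 Ctrl 3, B6 KD 1, D2 Ctrl 1 and D2 KD 2) and to 2846 to 5367 CPM in the other 7. A list of 8 neuron markers summed to 7480 to 10783 CPM across all libraries.

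The members covered a wide range of levels. Per kilobase of exon, averaged over the 12 libraries, Meg3 stood first at 303 CPM, followed by Nnat at 214, Nap1l5 at 158, Cd81 at 108 and Gnas at 100.3. Slc22a3 at 0.137 CPM and Zim1 at 0.141 CPM per kilobase were lowest. In GENCODE M21, 21 of the 40 members had an exon that overlapped an exon of another gene, and for 18 members such a gene lay on the opposite strand. How strand was used in counting is not given in the sources used here, so reads from such partners cannot be told apart.

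The first comparison asked which members differed between the strains. Averaged over treatments, 6 of 40 members (15.0%) were called in D2 against B6, beside 21.3% of all genes tested. Usp29 was higher in D2, and Peg3, Mirg, Rtl1, Dio3 and Copg2 were lower. Over all genes, 1370 of the 3379 called were higher in D2 and 2009 lower. The median log2 fold change was -0.029 over the members and 0.016 over all genes. In Ctrl mice alone 5 members were called, beside 14.0% of all genes, and in KD mice alone 3 were called, beside 15.0%. These last comparisons share no library. The 6 libraries of one strain did not overlap the 6 of the other for 4 members (10.0%), which were Usp29, Copg2, Mirg and Rtl1, beside 14.5% of all genes.

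The Peg3 domain lies on chromosome 7, where Peg3 and Usp29 are read from the paternal copy and in opposite directions. Usp29, which encodes a ubiquitin-specific peptidase, was at 5.23, 6.61 and 14.8 CPM in B6 Ctrl and at 11.9, 10.6 and 5.14 in B6 KD. In D2 it was at 43.1, 50.9 and 35.4 CPM in Ctrl and at 47.2, 52.6 and 43.0 in KD. Every D2 library was above every B6 library. The difference averaged over treatments was 5.02-fold (log2 fold change 2.33, SE 0.28, adjusted p = 7.93e-05). It was 2.28 (SE 0.39, adjusted p = 0.00198) in Ctrl and 2.38 (SE 0.39, adjusted p = 0.00155) in KD mice.

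Peg3, which encodes a zinc finger DNA-binding protein known for effects on growth and maternal care, went the other way. It was at 302, 298 and 417 CPM in B6 Ctrl and at 313, 299.7 and 202 in B6 KD. It was at 190, 209 and 77.2 CPM in D2 Ctrl and at 86.2, 91.6 and 197 in D2 KD. The strains met only at the edge, where B6 KD 3 (202 CPM) lay just under D2 Ctrl 2 (209 CPM). The averaged log2 fold change was -1.11 (SE 0.28, adjusted p = 0.0147), and neither treatment alone passed the test (adjusted p = 0.106 in Ctrl and 0.0906 in KD). Zim1, a maternally expressed zinc finger gene beside Peg3, was at 1.22 ± 0.935 CPM in B6 Ctrl and 1.07 ± 0.466 in B6 KD, with 1.37 ± 0.641 (Ctrl) and 0.886 ± 0.253 (KD) in D2 (SD, n = 3 each) and was not called.

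The region between the Peg3 and Usp29 start sites is shown because these neighbours share it and differed in opposite directions. Only the mouse reference sequence was read, and the D2 sequence of this region was not examined. In RefSeq (GRCm38.p6) the start sites lie 164 bases apart, head to head, and the Peg3 and Usp29 promoter windows (250 bases before to 50 after each start) share 263 bases. The Usp29 window is chr7:6730333-6730632 on the plus strand, and capitals mark the stretch from the Peg3 start site to the Usp29 start site.
Usp29 and Peg3 window: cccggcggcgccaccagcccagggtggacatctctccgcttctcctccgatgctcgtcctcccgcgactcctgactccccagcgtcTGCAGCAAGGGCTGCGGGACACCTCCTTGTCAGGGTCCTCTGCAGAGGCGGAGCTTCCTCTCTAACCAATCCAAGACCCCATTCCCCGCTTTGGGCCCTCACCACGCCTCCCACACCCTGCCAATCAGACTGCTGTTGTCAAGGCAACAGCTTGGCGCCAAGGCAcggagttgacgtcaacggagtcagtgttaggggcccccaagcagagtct
It held 17 CpG dinucleotides and was 63.7% G or C. The median was 7 CpGs over all 32851 RefSeq promoter windows of this length and 17.5 over the richest window of each of the 30 members that have one. The letters TGCCGC, the core of the site read by the imprint-protecting factor ZFP57, did not occur in it on either strand. They occurred in 11.6% of all windows and in at least 1 window of 12 of the 30 members (40%), some of which have several windows.

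The log2 ratio of Usp29 to Peg3 within a library put both changes together. It averaged -5.0 ± 0.39 in the B6 libraries and -1.51 ± 0.66 in the D2 libraries (SD, n = 6 each), with ranges of -5.60 to -4.61 and -2.17 to -0.79 that did not overlap. The difference of D2 from B6 was 3.46 in Ctrl and 3.51 in KD mice. In all, 6 such ratios were computed. They were chosen after the values of their genes were seen, so they are descriptions and were not tested.

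**Figure D1:**
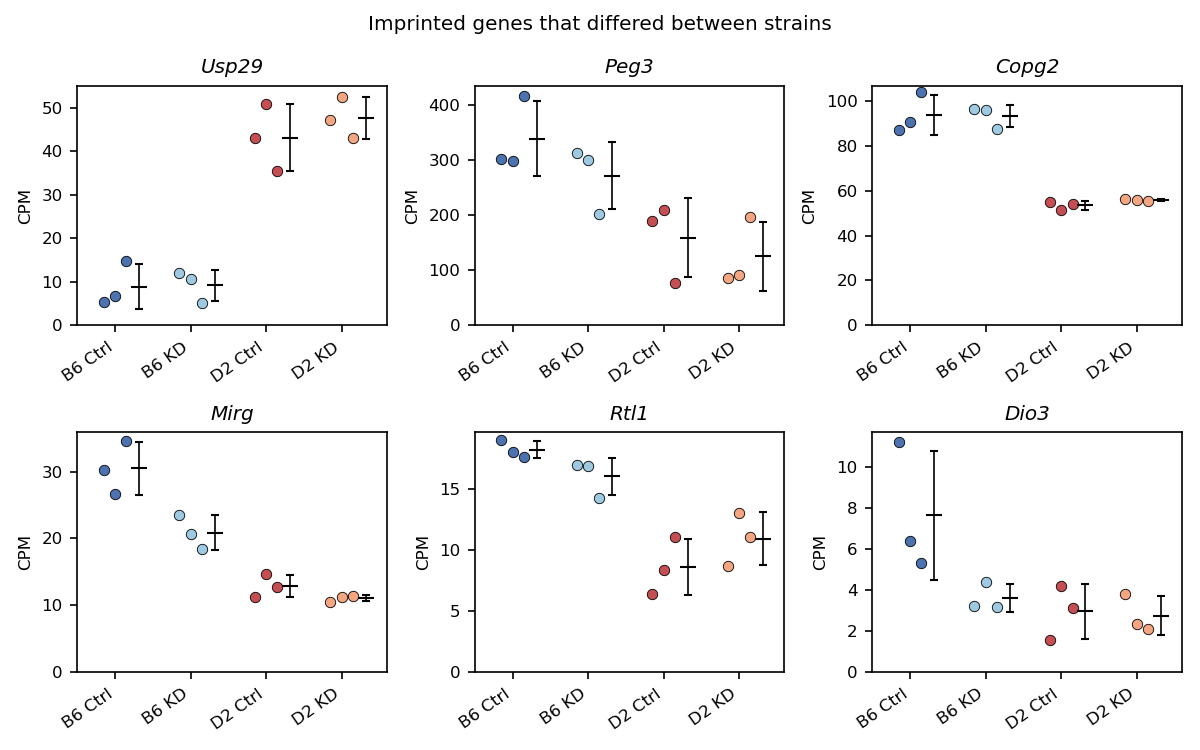
CPM of the 6 called members by group (x axis), with 1 point per library, 3 per group, and the mean with its SD beside them. Usp29 sits at 35.4 CPM or above in D2 and at 14.8 or below in B6, while Copg2, Mirg and Rtl1 sit lower in every D2 library.

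The Dlk1-Dio3 domain on chromosome 12 held 3 of the called members. Its paternal copy gives the protein-coding genes Dlk1, Rtl1 and Dio3, and its maternal copy gives the noncoding RNAs Meg3, Rian and Mirg. Mirg, which carries a long series of microRNAs, was at 30.2, 26.7 and 34.7 CPM in B6 Ctrl and at 23.6, 20.6 and 18.5 in B6 KD. It was at 11.2, 14.6 and 12.7 CPM in D2 Ctrl and at 10.5, 11.2 and 11.3 in D2 KD. All D2 libraries were below all B6 libraries, and the averaged log2 fold change was -1.09 (SE 0.09, adjusted p = 6.43e-06). It was -1.25 (SE 0.13, adjusted p = 6.61e-05) in Ctrl and -0.92 (SE 0.13, adjusted p = 0.000628) in KD mice.

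Rtl1 encodes a protein derived from a retrotransposon and acts in placenta and brain. Its level was 19, 18.0 and 17.6 CPM in B6 Ctrl and 16.9, 16.9 and 14.3 in B6 KD, against 6.41, 8.32 and 11 in D2 Ctrl and 8.70, 13 and 11.1 in D2 KD. No D2 library reached the lowest B6 library. The log2 fold change was -0.82 (SE 0.14, adjusted p = 0.00103) averaged over treatments and -1.09 (SE 0.20, adjusted p = 0.00277) in Ctrl. In KD mice it was -0.55 (SE 0.19, adjusted p = 0.0865).

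Dio3, the enzyme that inactivates thyroid hormone, was at 11.2, 6.38 and 5.29 CPM in B6 Ctrl and at 3.21, 4.38 and 3.17 in B6 KD. D2 Ctrl held 1.52, 4.19 and 3.11 CPM and D2 KD 3.81, 2.31 and 2.06 CPM. Only the B6 Ctrl libraries lay apart from the rest. The log2 fold change of D2 against B6 was -1.39 (SE 0.40, adjusted p = 0.0401) in Ctrl and -0.89 (SE 0.28, adjusted p = 0.0438) averaged over treatments. Without B6 Ctrl 1 the Ctrl value was -1.0 (adjusted p = 0.181), and this call was lost in 7 of the 12 fits that left out a library, as the averaged call was in 9 of them.

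The long RNAs that precede Mirg on the same strand were not called. Meg3 was at 6676 ± 463 CPM in B6 Ctrl and 4570 ± 1062 in B6 KD, with 5819 ± 1478 (Ctrl) and 4851 ± 1013 (KD) in D2. Rian, which hosts small nucleolar RNAs, was at 715 ± 43.5, 609 ± 66.7, 618 ± 106 and 619 ± 117 CPM in the same order. Dlk1, a transmembrane relative of the Notch ligands, was at 16.3 ± 5.17, 15.7 ± 6.49, 12.7 ± 9.72 and 17.5 ± 12.1 CPM (SD, n = 3 each for these 3 genes).

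Ratios within a library compared members of the domain directly. The log2 ratio of Mirg to Meg3 differed by -0.96 (D2 minus B6), and that of Mirg to Rian by -0.92. Mirg to Meg3 ranged from -7.81 to -7.45 in B6 and from -8.93 to -8.29 in D2, and Mirg to Rian from -4.92 to -4.30 and from -5.95 to -5.37, with no overlap in either. Rtl1 to Meg3 differed by -0.71, with -8.56 to -7.80 in B6 and -9.64 to -8.32 in D2. Dio3 to Meg3 differed by -0.66, with -10.35 to -9.13 and -11.2 to -9.73, and for both of these ratios the strains overlapped.

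The microRNAs of Mirg and of the strand opposite Rtl1 show what these RNAs carry. RefSeq places 26 mature microRNAs of 14 hairpins within the Mirg span (chr12:109729764-109749460, plus strand), with 25 different seeds among them. The only shared seed belongs to miR-453 and miR-496a-5p, shown here with miR-134-5p, miR-485-3p and miR-410-3p. Capitals mark the seed, bases 2 to 8.
miR-453: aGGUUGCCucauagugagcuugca
miR-496a-5p: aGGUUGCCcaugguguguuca
miR-134-5p: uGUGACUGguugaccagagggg
miR-485-3p: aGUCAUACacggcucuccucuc
miR-410-3p: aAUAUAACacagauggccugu
Opposite Rtl1 (chr12:109589193-109600330, minus strand) lie 11 mature microRNAs on the plus strand, and the whole reverse complement of each of the 11 occurs in an Rtl1 transcript of GENCODE M21. Reads of the precursor of these microRNAs and of Rtl1 cannot be told apart unless strand was used in counting. The sequences of miR-127-3p, miR-136-5p and miR-434-3p are shown as examples of such complete matches.
miR-127-3p: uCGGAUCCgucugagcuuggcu
miR-136-5p: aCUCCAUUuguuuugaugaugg
miR-434-3p: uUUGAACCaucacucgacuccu
The RefSeq promoter window of Mirg, chr12:109734731-109735030 on the plus strand, lies inside the longer GENCODE gene. Capitals mark miR-668-5p, miR-668-3p and miR-485-3p, which it already contains.
Mirg window: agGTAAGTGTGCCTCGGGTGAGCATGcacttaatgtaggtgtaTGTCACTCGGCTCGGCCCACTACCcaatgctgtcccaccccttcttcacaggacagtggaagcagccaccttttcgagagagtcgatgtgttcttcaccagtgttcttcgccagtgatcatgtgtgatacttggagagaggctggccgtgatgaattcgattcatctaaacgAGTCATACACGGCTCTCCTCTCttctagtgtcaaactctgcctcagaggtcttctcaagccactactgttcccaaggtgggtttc
MicroRNA levels were not analysed here, and the mRNA libraries do not measure the mature forms.

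Copg2, which encodes a coat subunit of the vesicles that return proteins from the Golgi, had the smallest standard error of the 6. It was at 87.2, 90.7 and 104 CPM in B6 Ctrl and at 96.6, 96.0 and 87.7 in B6 KD. It was at 55.2, 51.4 and 54.0 CPM in D2 Ctrl and at 56.4, 56.0 and 55.3 in D2 KD. The log2 fold change was -0.78 (SE 0.06, adjusted p = 1.62e-06) averaged over treatments, -0.81 (SE 0.08, adjusted p = 3.61e-05) in Ctrl and -0.74 (SE 0.08, adjusted p = 7.58e-05) in KD mice. Its neighbour Mest, a paternally expressed gene for a hydrolase-like protein whose last exon overlaps that of Copg2 on the opposite strand, was at 22.9 ± 1.14 CPM in B6 Ctrl and 29.5 ± 7.57 in B6 KD, with 29.8 ± 6.06 (Ctrl) and 33.6 ± 1.80 (KD) in D2 (SD, n = 3 each). Mest was not called. The log2 ratio of Copg2 to Mest differed by -1.04, with 1.24 to 2.11 in B6 and 0.55 to 1.22 in D2.

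**Figure D2:**
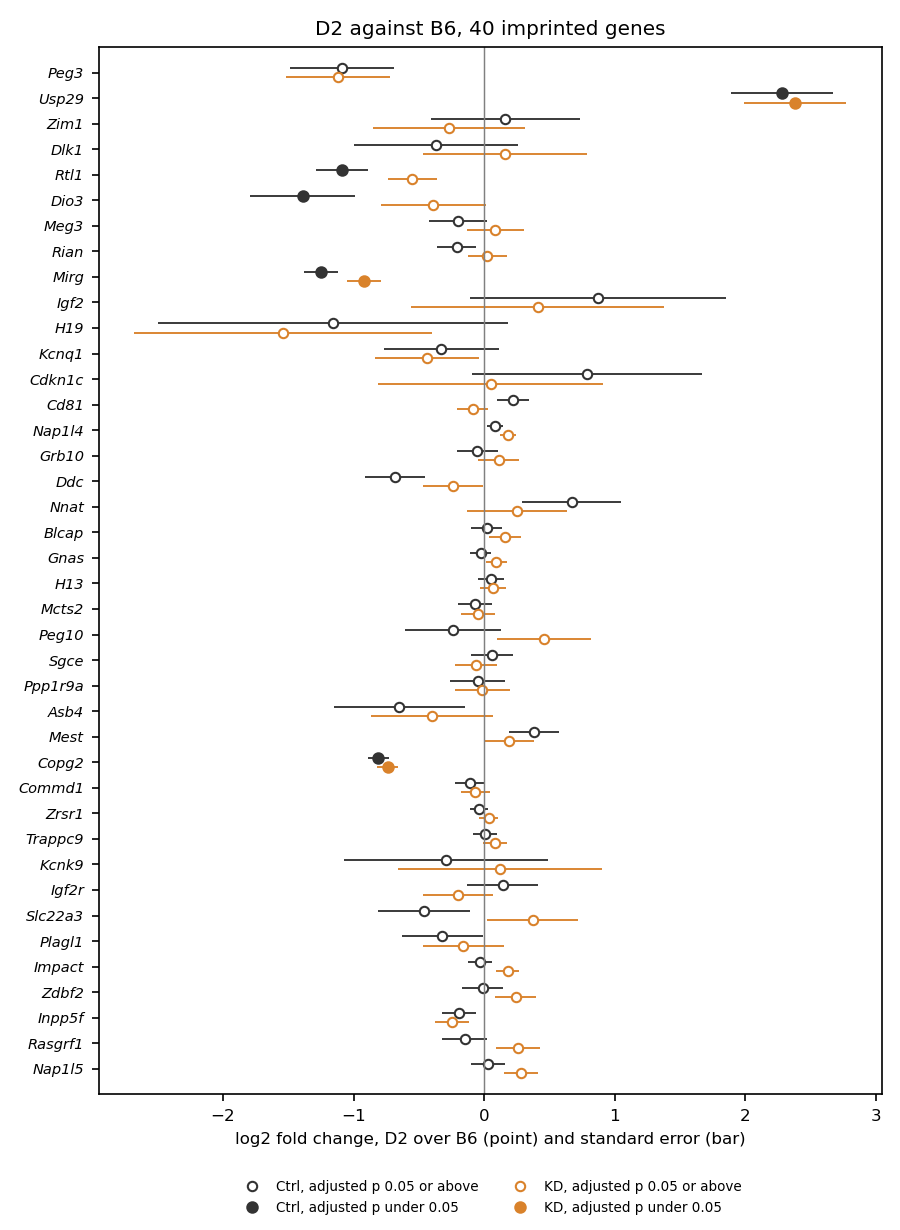
Log2 fold change of D2 over B6 (x axis, bars are standard errors) for the 40 members in Ctrl and in KD mice, with filled points for adjusted p under 0.05. Usp29 lies beyond 2 in both treatments, Mirg and Copg2 are filled on the negative side in both, and Rtl1 and Dio3 are filled in Ctrl.

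Other measures are given here beside the strain differences of the members named so far. Reads of each mouse were aligned to the genome of its own strain, so the reference differs wherever the strains are compared, and its part in these differences was not tested. A list of 8 oligodendrocyte markers summed to 4056 to 5985 CPM in B6 and to 2788 to 5029 CPM in D2, and its part was not tested. The choroid plexus sums spanned similar ranges in the strains, 85.0 to 5265 CPM in B6 and 66.4 to 5367 CPM in D2. With that score as a covariate in edgeR, adjusted p of the 6 members in the averaged comparison ran from 6.13e-06 (Copg2) to 0.0403 (Dio3). The share of all genes called in that fit is not given here. With DESeq2, 8 members were called in the averaged comparison, beside 21.8% of all genes, since Ddc (adjusted p = 0.0474) and Nap1l4 (adjusted p = 0.00405) joined the 6. DESeq2 called 7 members in Ctrl, beside 14.7% of all genes, and 5 in KD mice, beside 17.1%.

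The second comparison asked whether any member responded to the hairpin against Hp1bp3. None of the 40 was called by edgeR in B6, beside 2.64% of all genes (418, of which 279 were higher in KD). There 7 members (17.5%) had an unadjusted p under 0.05, beside 20.6% of all genes. None was called in D2, beside 0.0% of all genes. In D2, 2 members (5.0%) had an unadjusted p under 0.05, beside 2.85% of all genes. None was called averaged over strains, beside 0.0% of all genes. In that comparison 6 members (15.0%) had an unadjusted p under 0.05, beside 19.2% of all genes. The difference of the KD effect between strains was called for no member and no gene (0.0%). No member had an unadjusted p under 0.05 there, beside 5.91% of all genes. DESeq2 called 3 members in B6, beside 10.1% of all genes, and 2 averaged over strains, beside 7.38%, all lower in KD. Over all genes, DESeq2 called 916 higher and 752 lower in KD in B6, and 650 higher and 567 lower averaged over strains. It called none in D2 or in the interaction, beside 0.00525% and 0.0745% of all genes.

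KD and Ctrl libraries did not overlap for 14 members in B6 (35%), beside 27.8% of all genes. Of these members, 3 were higher in KD (Cd81, Kcnq1 and Nnat). The 11 lower were Dio3, Impact, Meg3, Mirg, Nap1l4, Nap1l5, Rasgrf1, Rian, Rtl1, Zdbf2 and Zrsr1. The directions over all such genes were not counted. In D2, KD and Ctrl libraries did not overlap for 2 members (5.0%), beside 5.96% of all genes. Zrsr1 was the only member apart in both strains in the same direction (1 of 40, 2.5%), beside 1.87% of all genes. The median log2 fold change of the members was -0.057 in B6 and 0.042 in D2, against 0.0025 and 0.0041 over all genes.

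Zrsr1 encodes a protein related to the small subunit of the splicing factor U2AF. It is a paternally expressed retrogene at chr11:22972005-22976496, within the span of Commd1 on the opposite strand, and it overlaps an annotated exon of that gene. It was at 88.4, 87.9 and 83.5 CPM in B6 Ctrl and at 70.3, 67.9 and 72.3 in B6 KD. In D2 it was at 87.6, 80.4 and 84.3 CPM in Ctrl and at 66.7, 72.6 and 76.2 in KD. All 6 KD libraries were below all 6 Ctrl libraries, and that includes the library labelled D2 KD 3. The log2 fold change was -0.30 (SE 0.07, adjusted p = 0.0512) in B6, -0.23 (SE 0.07, adjusted p = 1) in D2 and -0.27 (SE 0.05, adjusted p = 0.0547) averaged over strains. Averaged over strains and without the library labelled D2 KD 3, it was -0.29 (adjusted p = 0.0199, where 4.97% of all genes were called). That library had the highest Zrsr1 of the 6 KD libraries, so a larger drop without it was fixed in advance and is no test. DESeq2 gave an adjusted p of 1.26e-05 averaged over strains with all libraries, where it called 7.38% of all genes.

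The host gene and the parent gene of Zrsr1 were not called between treatments. Its host Commd1, a copper-handling protein, was at 19.8 ± 1.79 CPM in B6 Ctrl and 17.9 ± 0.80 in B6 KD, with 18.3 ± 2.17 (Ctrl) and 17.1 ± 1.30 (KD) in D2 (SD, n = 3 each). The parent gene Zrsr2 on chromosome X was at 46.8 to 50.7 CPM in B6 Ctrl and 38.9 to 59.4 in B6 KD, with 42.4 to 51.5 (Ctrl) and 44.2 to 55.5 (KD) in D2. Its averaged log2 fold change was 0.024 (SE 0.11, adjusted p = 0.925). None of the 4418 different 75-base stretches of Zrsr1 transcripts occurred in a Zrsr2 transcript, so reads of that length would match both only with mismatches.

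Mirg was next in order of p in B6, where its KD libraries (18.5 to 23.6 CPM) lay below its Ctrl libraries (26.7 to 34.7 CPM). The log2 fold change was -0.55 (SE 0.13, adjusted p = 0.0521) in B6, -0.22 (SE 0.13, adjusted p = 1) in D2 and -0.38 (SE 0.09, adjusted p = 0.0736) averaged over strains. DESeq2 gave adjusted p = 0.00296 in B6. Meg3, Rian, Rtl1 and Dio3 of the same domain were also lower in every B6 KD library than in any B6 Ctrl library. Their log2 fold changes in B6 were -0.55 (adjusted p = 0.198), -0.23 (0.423), -0.19 (0.624) and -1.09 (0.145). In D2 they were -0.26, 0.002, 0.35 and -0.094 in the same order, and none was called. KD and Ctrl libraries of B6 did not overlap, in either direction, for 27.8% of all genes. The B6 groups overlapped for Dlk1 (-0.061, adjusted p = 0.972). Rasgrf1, an activator of Ras that couples to glutamate receptors, was at 618, 612 and 722 CPM in B6 Ctrl and at 445, 481 and 399.9 in B6 KD, with no overlap. Its log2 fold change was -0.56 (SE 0.17, adjusted p = 0.102) in B6 and -0.35 (SE 0.12, adjusted p = 0.161) averaged over strains. In D2 it was at 587 ± 126 CPM in Ctrl and 530 ± 103 in KD, and the groups overlapped.

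Peg10, a retrotransposon-derived gene needed for placenta, had the second smallest p in D2. Its D2 Ctrl libraries were at 23.5, 36.4 and 26.8 CPM and its D2 KD libraries at 78.9, 66.6 and 22.1, the last being the library labelled D2 KD 3, in which Hp1bp3 was not reduced. B6 Ctrl was at 34.0 ± 2.28 and B6 KD at 40.5 ± 8.14 CPM. The log2 fold change in D2 was 0.95 (SE 0.37, adjusted p = 1), and averaged over strains it was 0.60 (SE 0.26, adjusted p = 0.241). Leaving out the library labelled D2 KD 3, the averaged value was 0.79 (adjusted p = 0.0163, where 4.97% of all genes were called). In that fit Peg10 was not called in D2 (1.33, adjusted p = 0.172) or in B6 (0.25, adjusted p = 0.468). The library left out had the lowest Peg10 of the D2 KD group. Rtl1 came next in D2 (0.35, SE 0.19, adjusted p = 1) and had the smallest p of the interaction (0.54, SE 0.27, adjusted p = 0.855), followed by Dio3 (1.00, SE 0.56, adjusted p = 0.881) and Cd81 (-0.31, SE 0.18, adjusted p = 0.889).

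**Figure D3:**
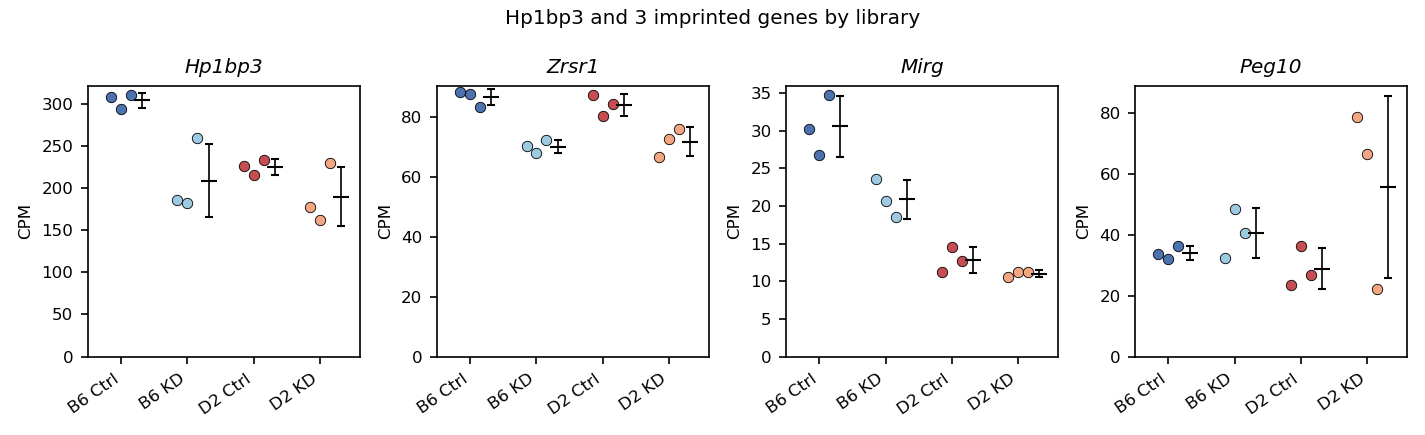
CPM of Hp1bp3 and of Zrsr1, Mirg and Peg10 by group (x axis), with 1 point per library and the mean with its SD beside them. All Zrsr1 KD points lie at 76.2 CPM or below and all Ctrl points at 80.4 or above, and the last D2 KD point is at 230 CPM for Hp1bp3 and at 22.1 for Peg10.

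Sums of marker lists are set here beside KD in B6. A list of 8 neuron markers summed to 9289 to 10218 CPM in B6 Ctrl and to 7480 to 9082 in B6 KD. A list of 8 microglia markers summed to 390 to 451 and 531 to 854 CPM, and a list of 10 interferon response genes to 68.6 to 84.6 and 421 to 1299 CPM. A list of 8 astrocyte markers summed to 4731 to 5623 and 5601 to 7416 CPM, which overlap. Gene by gene, edgeR called all 10 interferon genes, Aqp4 alone of the astrocyte list and no neuron or microglia marker for KD in B6, beside 2.64% of all genes. The part of these lists in the lower Mirg, Rasgrf1 and Zrsr1 of B6 KD was not tested. In D2 the neuron sums were 9006 to 10783 CPM in Ctrl and 9227 to 9607 in KD, and the interferon sums 79.3 to 209 and 101 to 481. The D2 microglia sums were 376 to 598 CPM in Ctrl and 381 to 639 in KD.

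**Figure D4:**
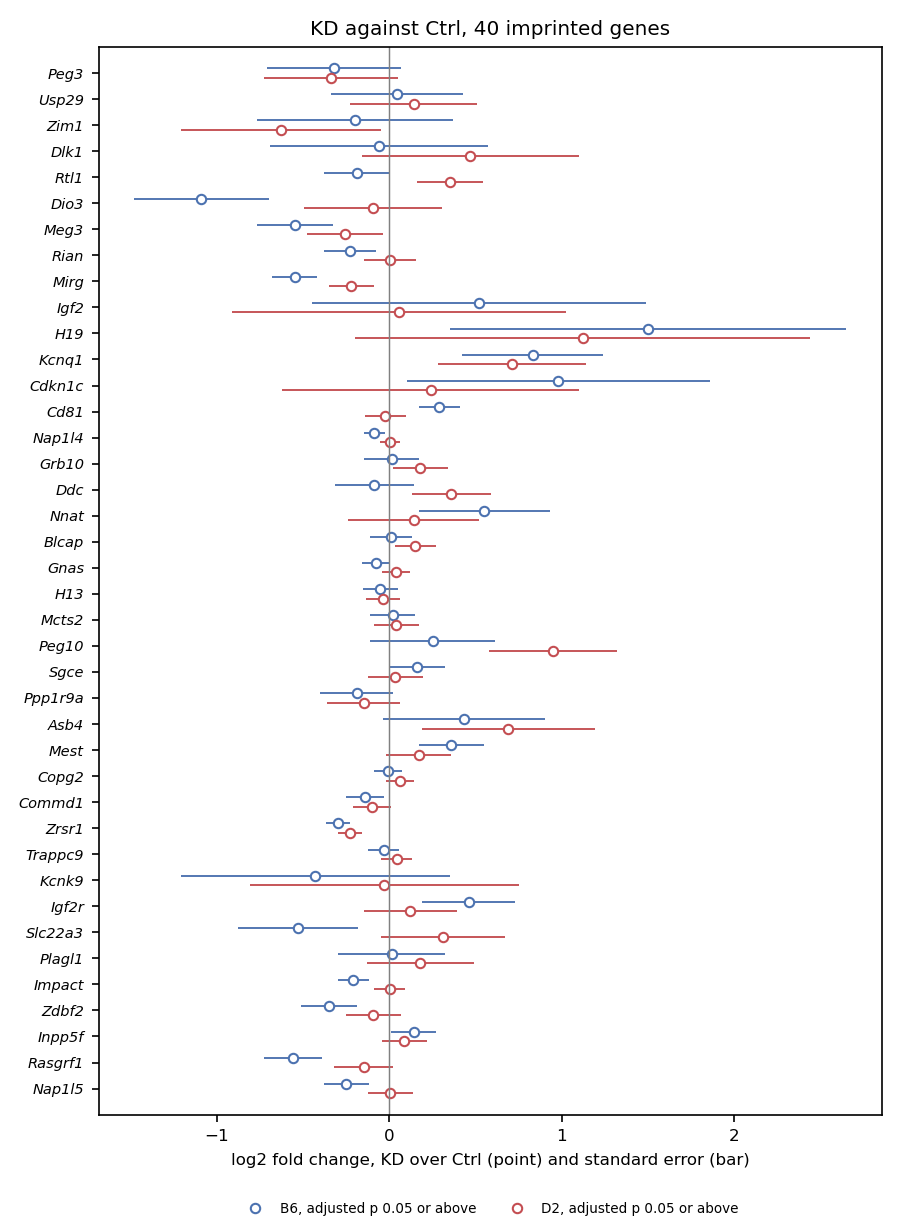
Log2 fold change of KD over Ctrl (x axis, bars are standard errors) for the 40 members in B6 and in D2. No point is filled, since none had an adjusted p under 0.05. The Zrsr1 points lie at -0.30 and -0.23 with short bars, and the Peg10 points at 0.25 and 0.95.

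The Igf2-H19 and Kcnq1ot1 domains on chromosome 7 included members that varied widely within groups. Igf2 is a growth factor made in adult brain chiefly by choroid plexus and meninges. It was at 34.6 to 86.3 CPM in the 5 libraries with few choroid plexus transcripts and at 246 to 377 in the other 7. Cdkn1c, a maternally expressed inhibitor of cell division, was at 2.41 to 4.99 and 11.9 to 21.3 CPM in the same libraries. Of the 40 members only these 2 did not overlap between the libraries so divided (5.0%), beside 2.12% of all genes. Igf2 averaged 143 ± 167 CPM in B6 Ctrl and 204 ± 153 in B6 KD, with 261 ± 153 (Ctrl) and 271 ± 166 (KD) in D2 (SD, n = 3 each). Of the 5 libraries with few choroid plexus transcripts, 2 were B6 Ctrl and 1 came from each of the other groups. A list of 12 meninges and fibroblast markers summed to 117 to 297 CPM in those 5 libraries and to 215 to 545 in the other 7. Its part was not tested.

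**Figure D5:**
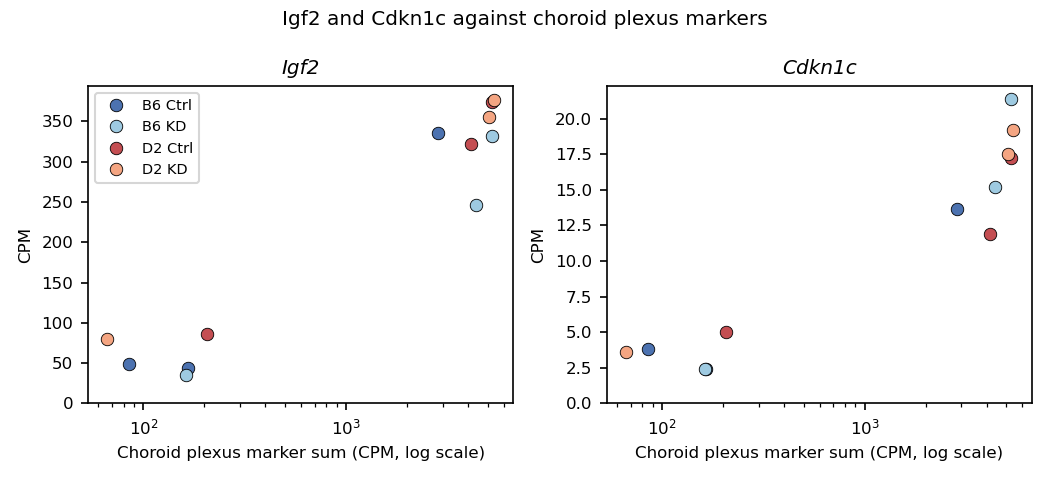
CPM of Igf2 and Cdkn1c (y axis) against the sum of 12 choroid plexus markers in CPM (x axis, log scale), with 1 point per library coloured by group. Each gene falls into a low cluster of 5 libraries and a high cluster of 7, and both clusters mix strains and treatments.

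Group means of the other members of these domains, Cdkn1c included, are given next. H19, the maternal noncoding RNA across from Igf2, had between 2 and 133 counts per library and averaged 0.534 ± 0.829 CPM in B6 Ctrl and 1.41 ± 1.69 in B6 KD, with 0.223 ± 0.164 (Ctrl) and 0.486 ± 0.152 (KD) in D2. Kcnq1, a potassium channel subunit, averaged 0.682 ± 0.13, 1.2 ± 0.363, 0.545 ± 0.254 and 0.892 ± 0.362 CPM in the same order. Cdkn1c averaged 6.63 ± 6.12, 13 ± 9.65, 11.4 ± 6.14 and 13.4 ± 8.57 CPM. Cd81, a tetraspanin found on glia and many other cells, averaged 275 ± 21.3, 336 ± 23.3, 321 ± 58.5 and 316 ± 24.4 CPM. Nap1l4, a histone chaperone, averaged 104 ± 3.25, 97.9 ± 3.48, 110.3 ± 4.24 and 111 ± 2.98 CPM (SD, n = 3 for every group mean from here on). None of these genes was called by edgeR in any comparison.

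None of the members on chromosome 2 was called. Gnas, which encodes the stimulatory G protein alpha subunit, was at 1140 ± 38 CPM in B6 Ctrl and 1079 ± 82.9 in B6 KD, with 1120 ± 31.9 (Ctrl) and 1150 ± 22.6 (KD) in D2. Nnat, a small membrane protein of the endoplasmic reticulum, was at 269 ± 44.5, 396 ± 99.0, 428 ± 245 and 471 ± 171 CPM. Blcap, whose intron holds Nnat, was at 104 ± 6.99, 105 ± 12.7, 106 ± 11.8 and 117 ± 15.1 CPM. H13, a signal peptide peptidase whose isoforms depend on the parental copy, was at 67.3 ± 3.09, 64.9 ± 5.08, 69.8 ± 4.95 and 68.0 ± 6.93 CPM. Mcts2, the retrogene inside H13, was at 7.44 ± 0.464, 7.54 ± 0.897, 7.10 ± 0.176 and 7.31 ± 0.787 CPM. Its parent Mcts1 on chromosome X was lower in D2 averaged over treatments (log2 fold change -0.40, SE 0.07, adjusted p = 0.00115), while Mcts2 was not called.

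Chromosome 11 and chromosome 6 held further members that were not called by edgeR. Grb10, an adaptor that restrains insulin and growth factor receptors and is read from the paternal copy in neurons, was at 46.3 ± 3.30 CPM in B6 Ctrl and 46.7 ± 9.70 in B6 KD, with 44.7 ± 6.28 (Ctrl) and 50.5 ± 6.64 (KD) in D2. Ddc, the enzyme that completes dopamine and serotonin synthesis, was at 5.95 ± 0.409, 5.62 ± 1.32, 3.69 ± 0.877 and 4.75 ± 0.956 CPM. Sgce, the sarcoglycan gene of myoclonus-dystonia, was at 26.3 ± 2.01, 29.3 ± 5.20, 27.3 ± 2.78 and 28.0 ± 5.55 CPM. Ppp1r9a, which encodes the actin-binding protein neurabin, was at 235 ± 56.9, 206 ± 33.8, 227 ± 49.3 and 204 ± 35.1 CPM. Asb4 was at 1.29 ± 0.299, 1.71 ± 0.843, 0.818 ± 0.324 and 1.31 ± 0.725 CPM. Nap1l5, a retrogene within Herc3 and strongly expressed in neurons, was at 299 ± 11.6, 252 ± 28.4, 305 ± 23.2 and 306 ± 60.4 CPM. Its host Herc3 was not called between treatments (averaged log2 fold change 0.25, SE 0.14, adjusted p = 0.339).

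The remaining members also stayed below the threshold. On chromosome 15, Trappc9, a part of a vesicle tethering complex, was at 89.2 ± 1.27 CPM in B6 Ctrl and 87.2 ± 4.72 in B6 KD, with 89.6 ± 11.6 (Ctrl) and 92.3 ± 2.81 (KD) in D2, and the potassium channel gene Kcnk9 was at 4.90 ± 2.60, 3.66 ± 2.60, 4.04 ± 2.44 and 3.94 ± 3.02. On chromosome 17, Igf2r, the receptor that clears Igf2, was at 62.6 ± 15.1, 86.4 ± 29.6, 69.3 ± 15.2 and 75.3 ± 11.4 CPM, and the organic cation transporter Slc22a3 at 0.741 ± 0.329, 0.515 ± 0.0561, 0.548 ± 0.0793 and 0.674 ± 0.13. Plagl1, a zinc finger transcription factor that limits growth, was at 34.1 ± 1.16, 34.4 ± 6.45, 27.4 ± 11.3 and 30.9 ± 10.2 CPM. Impact, a regulator of translation, was at 314 ± 8.46, 271 ± 8.95, 307 ± 26.7 and 307 ± 31.6 CPM. Zdbf2 was at 27.4 ± 1.91, 21.5 ± 2.60, 27.2 ± 6.43 and 25.4 ± 2.84 CPM, and Inpp5f, a phosphoinositide phosphatase, at 133 ± 12.2, 147 ± 22.9, 117 ± 12.7 and 124 ± 14.0.

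Other genes reported as imprinted in mouse formed a second list of 37, of which 32 had a row and 28 were tested. Averaged over treatments 1 was higher in D2 and 2 were lower (10.7% of the 28), beside 21.3% of all genes. Pde4d, a cyclic AMP phosphodiesterase, was at 16.8 to 46.8 CPM in B6 and 52.9 to 86.7 in D2, with no overlap (log2 fold change 1.24, SE 0.20, adjusted p = 0.000913). The noncoding RNA Airn, which runs antisense to Igf2r, was at 0.782 to 1.41 CPM in B6 and 0.396 to 0.727 in D2 (-0.90, SE 0.22, adjusted p = 0.0123). Pon2, a lactone hydrolase, was called at -0.35 (SE 0.11, adjusted p = 0.0457), and the call was lost in 10 of the 12 fits that left out a library (adjusted p up to 0.108) and with the total count as a covariate (0.0852). In B6, Begain, a synaptic gene beside Dlk1, was lower in KD (-0.43, SE 0.09, adjusted p = 0.044), 1 of 28 (3.57%) beside 2.64% of all genes. That call was lost in 7 of the 12 fits that left out a library (adjusted p up to 0.178). It was also lost with the choroid plexus score (0.0817) or the total count (0.0712) as a covariate, where 0.0% of all genes were called. No gene of the list was called for KD averaged over strains or in D2. Those with the smallest p for KD averaged over strains were Begain (-0.28, adjusted p = 0.0673), Tspan32 (1.34, adjusted p = 0.0934), Th (1.47, adjusted p = 0.0961), Ampd3 (0.52, adjusted p = 0.159) and Dhcr7 (0.17, adjusted p = 0.216).

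Factors that set, read or protect imprints were a list of 23, all with a row and 22 tested. Averaged over treatments 1 was higher in D2 and 1 was lower (9.09% of the 22), beside 21.3% of all genes. Zfp445, a zinc finger protein that guards imprinted methylation, was at 25.1, 31.1 and 72.4 CPM in B6 Ctrl and at 52.8, 42.4 and 15.5 in B6 KD, against 245, 251 and 165 in D2 Ctrl and 165, 161 and 223 in D2 KD. No D2 library overlapped B6, and the averaged log2 fold change was 2.34 (SE 0.33, adjusted p = 0.000342). Hells, a chromatin remodeller needed for DNA methylation, was lower in D2 (-0.72, SE 0.14, adjusted p = 0.00341). In B6, Uhrf1, which brings the maintenance methyltransferase to newly copied DNA, was at 1.07 to 1.45 CPM in Ctrl and 2.63 to 3.00 in KD (1.16, SE 0.27, adjusted p = 0.0488), 1 of 22 (4.55%) beside 2.64% of all genes. That call was lost in 10 of the 12 fits that left out a library (adjusted p up to 0.192), with no filter on low counts (0.055), and with the choroid plexus score (0.0808) or the total count (0.0748) as a covariate. No factor was called for KD averaged over strains or in D2, and the smallest p averaged over strains belonged to Uhrf1 (0.75, adjusted p = 0.0784), Mbd3 (-0.23, adjusted p = 0.0902), Dnmt3l (1.19, adjusted p = 0.214), Setdb1 (-0.18, adjusted p = 0.232) and Arid4b (-0.15, adjusted p = 0.246).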

How the data were processed

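Whole hippocampus mRNA was sequenced in 12 libraries, 3 for each strain and treatment. The authors trimmed reads, aligned those of each mouse to its own strain's genome, and estimated expression with RSEM 1.2.12 and Bowtie2 2.2.0; the submitters' processing notes name GRCm38. The values the authors deposited are expected counts from RSEM, 1 per gene and library, neither whole nor normalized. The annotation release and the use of strand are not given in the sources used here. Reads of a second run were added for most samples, and the labels do not say which.

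Expected counts were rounded, filtered with filterByExpr and tested with edgeR 4.0.16 (older quasi-likelihood method, robust, TMM) in R 4.3.3, with 1 mean per group. Standard errors are approximate, since each was derived from the log2 fold change and its F statistic. DESeq2 1.42.0 was an alternative. The fit was checked on simulated counts. Ratios used log2(CPM + 1). Coordinates are GENCODE M21, and sequences are from RefSeq, GRCm38.p6. No D2 sequence was examined. Replicates are named in order of deposit, and p-values measure the spread between these mice. Member genes and lists were chosen with earlier results of these data known. Every member was named with its levels, and statistics were given for called members or the 3 smallest p-values of a comparison with fewer than 3 called. The deposited normalized counts were not used here. Counting error is small at these totals except for the lowest genes.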

Additional observations from a re-analysis of the deposited data

How the results depend on the processing

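Each count of called members was recomputed with 6 other settings and without each of the 12 libraries. DESeq2 called 2 members for KD averaged over strains, 3 for KD in B6 and 5 for D2 against B6 in KD mice, beside 7.38%, 10.1% and 17.1% of all genes, where edgeR called 0, 0 and 3 members. RLE size factors and the newer quasi-likelihood method each called 2 for KD in B6 (Zrsr1 and Mirg), beside 2.97% and 3.86% of all genes. With the total count or the choroid plexus score as a covariate, 0.0% of all genes were called for KD in B6. Leaving out 1 library gave 0 to 2 members for KD averaged over strains (0.0% to 4.97% of all genes), 0 to 1 for KD in B6 (0.0% to 4.94%) and 3 to 5 for D2 against B6 in KD mice (11.4% to 16.1%). The 5 came without D2 Ctrl 3, which added Peg3 and Rtl1 (15.5% of all genes), and without D2 KD 3, which added Peg3 and Peg10 (11.7%). Of 690 values of single genes and ratios, 15 passed the threshold newly, 49 no longer passed it, and none reversed. The lost calls were 11 of Pon2 (strain), 9 of Begain and 13 of Uhrf1 (KD in B6), and 16 of Dio3, which lost its call in Ctrl without B6 Ctrl 1, B6 Ctrl 2, B6 KD 1, B6 KD 2, D2 Ctrl 1, D2 Ctrl 3 or D2 KD 2 (adjusted p up to 0.181), and kept its averaged call only without B6 Ctrl 3, D2 Ctrl 2 or D2 KD 1 (adjusted p up to 0.114 without one of the other 9). Zrsr1 was called averaged over strains without B6 KD 3 (adjusted p = 0.0327), D2 Ctrl 3 (0.0473) or D2 KD 3 (0.0199), and in B6 without B6 KD 3 (0.0393) or D2 KD 3 (0.044). B6 KD 3 and D2 KD 3 each had the highest Zrsr1 of their KD group. Mirg was called in B6 without B6 Ctrl 2 (0.0493). The 6 ratios moved by less than the spread between replicates without a pseudocount and without any 1 library, alternatives chosen after seeing the data. The cause was not tested. No paired analysis was possible because the replicate numbers are only the order of deposit.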
